A study of Rattus norvegicus with 8 samples.

Results

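The adrenergic receptors described here are the products of 8 genes, Adra1a, Adra1b, Adra1d, Adra2a, Adra2b, Adra2c, Adrb1 and Adrb3. They were taken by gene name from the probes of the mRNA arrays, which carry 26514 different gene names in all, and each of the 8 genes had 1 probe. RNA came from the lumbosacral (L6S1) spinal cord of male Wistar rats aged 12 weeks. The stressed group (n = 4) was exposed to water avoidance (WA) stress on 10 consecutive days, in which a rat stands on a small platform surrounded by water, and the cord was taken 24 h after the last session. The control group (n = 4) did not undergo WA stress. One array was used per rat, and 1 slide held all 8 arrays. Row 1 of the slide carried the stressed group and row 2 the control group, so that row and group cannot be told apart.

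Adrenergic receptors are G protein-coupled receptors for noradrenaline and adrenaline. In the spinal cord, noradrenaline is released from the axons of brainstem neurons, and descending noradrenergic fibres are known for their part in the control of pain. The alpha1 receptors (Adra1a, Adra1b and Adra1d) couple to Gq and phospholipase C, the alpha2 receptors (Adra2a, Adra2b and Adra2c) couple to Gi, which lowers cyclic AMP and opens potassium channels, and the beta receptors (Adrb1 and Adrb3) couple to Gs, which raises cyclic AMP. The lumbosacral cord receives sensory fibres from the colon and bladder.

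The levels below are log2 signals, with the 75th percentile of each array set to 0, and differences are stressed minus control on the same log2 scale. The receptors were not ranked by level, because probes differ in how strongly they bind. Of the 8 receptors, 7 had a probe well above background on all 8 arrays, as had 72.6% of all 30367 probes. Adrb3 was well above background on 5 arrays, and all 8 receptors entered the test. At FDR below 0.1, limma called 0 of the 8 receptors between stressed and control rats, and 3.74% of all 23678 tested probes were called. At an unadjusted p below 0.05, limma gave 3 of the 8 (Adra1a, Adra2a and Adra2c), beside 20.3% of all tested probes. The 2 groups overlapped in all 8 receptors, whereas they did not overlap in 12.1% of all tested probes. The fitted difference was above 0 for all 8, beside 59.6% of all tested probes, and Adra1b was at -0.02 with another background correction. The median difference of the 8 was 0.30, and that of all tested probes was 0.06. In RNA from whole tissue, fewer cells of a type and less RNA per cell cannot be told apart.

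**Figure D1:**
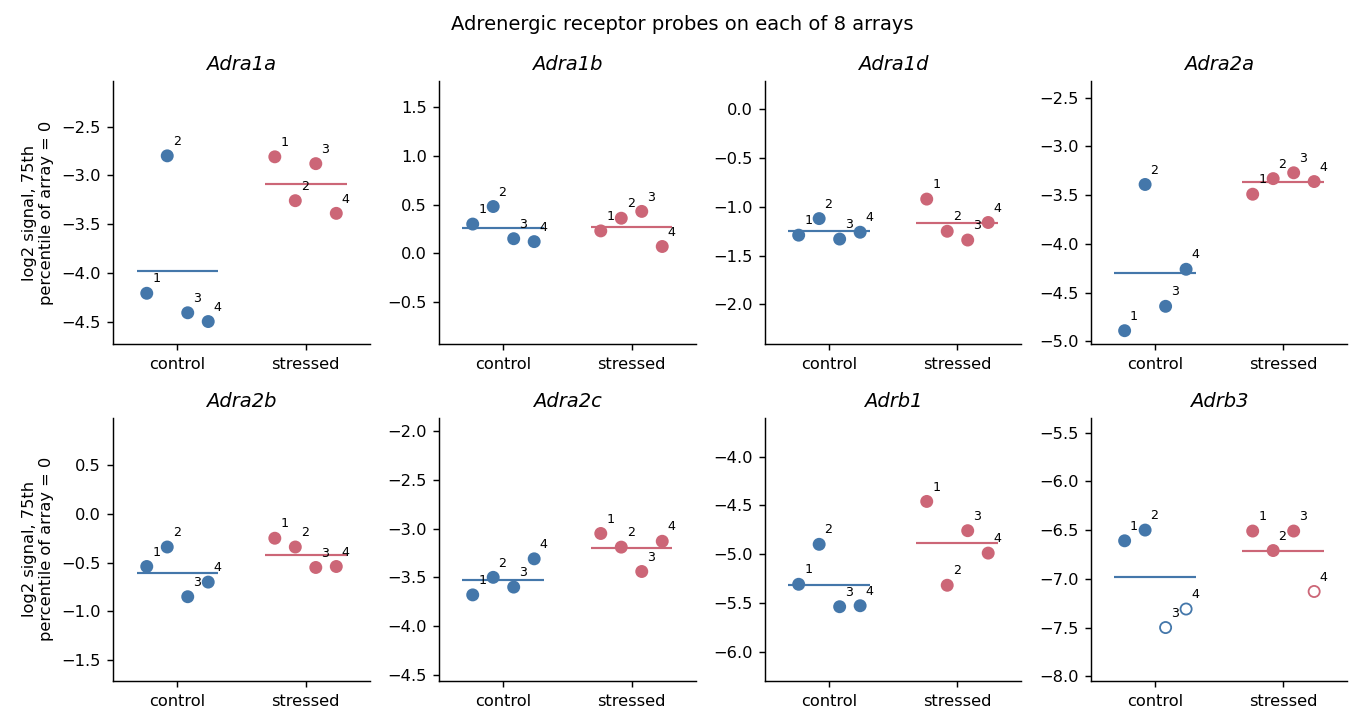
Log2 signal of the 8 adrenergic receptor probes (y axis, 75th percentile of the array at 0) in control and stressed rats, 1 point per array with its replicate number, lines at the group means (n = 4 each). Open points mark arrays on which the probe was not well above background, and all panels span the same log2 range. Control replicate 2 is the highest rat in Adra1a and lies within the stressed range in Adra2a, and in both the other 3 control rats lie below every stressed rat.

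Among the alpha1 receptors, Adra1a had the widest spread between rats. Its level was -4.21, -2.80, -4.41 and -4.50 in control replicates 1 to 4 and -2.81, -3.26, -2.88 and -3.39 in stressed replicates 1 to 4. Control replicate 2 was the highest of all 8 rats, and the other 3 control rats lay below every stressed rat. The group means were -3.98 ± 0.79 (SD, n = 4) in control and -3.09 ± 0.28 (SD, n = 4) in stressed rats. The difference was 0.89 (SE 0.37, 95% interval 0.03 to 1.75), which limma did not call (adjusted p = 0.236). The exact permutation test over the 70 ways of choosing 4 of 8 rats, which is two-sided and cannot go below 0.0286, gave p = 0.143. The probe lies on chromosome 15 from 46263114 to 46263173 of the rn4 assembly.

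Adra1b and Adra1d had narrow spreads. Adra1b (chromosome 10, 28889094 to 28889153) was 0.26 ± 0.17 (SD, n = 4) in control and 0.27 ± 0.16 (SD, n = 4) in stressed rats. Its difference was 0.01, with a 95% interval of -0.26 to 0.28. Adra1d, which is known from arterial smooth muscle, has 10 spots per array (chromosome 3, 119280059 to 119280118). Its level was -1.25 ± 0.09 (SD, n = 4) in control and -1.17 ± 0.18 (SD, n = 4) in stressed rats, and the difference was 0.08 (95% interval -0.16 to 0.32). The SD between its spots on an array was at most 0.08, below the SD between rats. For both receptors the difference was smaller than the spread between rats (limma adjusted p = 0.974 for Adra1b and 0.66 for Adra1d). Before scaling, their mean signals were lower in stressed rats, at 2575 in control and 2267 in stressed rats for Adra1b, and 904 and 835 for Adra1d.

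The alpha2 receptors include Adra2a, the receptor through which clonidine-like drugs relieve pain in the cord, and Adra2c, which is also found on spinal neurons. Probe sequences are shown for the 2 alpha2 receptors that had an unadjusted p below 0.05 and for Adrb1, as read from the scanner files, 5′ to 3′. For Adra2a these are the first 30 of its 60 bases. The Adra2c and Adrb1 probes are given whole, with the last 3 bases in capitals. Those 3 bases spell a stop codon, and in their frame the probes hold 0 other stop codons.
Adra2a: cttggtggcttttgagaccttttgttacca
Adra2c: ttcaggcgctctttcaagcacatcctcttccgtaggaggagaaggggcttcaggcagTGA
Adrb1: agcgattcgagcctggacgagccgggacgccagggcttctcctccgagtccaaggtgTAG

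The level of Adra2a was -4.89, -3.39, -4.64 and -4.26 in control replicates 1 to 4 and -3.49, -3.33, -3.27 and -3.36 in stressed replicates 1 to 4. The stressed rats lay close together, and control replicate 2 fell within their range while the other 3 control rats lay below it. The means were -4.29 ± 0.65 (SD, n = 4) in control and -3.36 ± 0.09 (SD, n = 4) in stressed rats. The difference of 0.93 (SE 0.29, 95% interval 0.25 to 1.61) corresponds to 1.91-fold and was the largest of the 8 receptors in the main fit. It was not called by limma (adjusted p = 0.159), and the exact permutation p was 0.0571. The files give its probe no position on rn4 (unmapped).

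Adra2c was -3.68, -3.50, -3.60 and -3.31 in control replicates 1 to 4 and -3.05, -3.19, -3.44 and -3.13 in stressed replicates 1 to 4. Here control replicate 2 did not stand apart from the other control rats, and the overlap came from control replicate 4 and stressed replicate 3. The difference was 0.32 (SE 0.12, 95% interval 0.05 to 0.59), at an adjusted p of 0.193 in limma and an exact permutation p of 0.0571. Before scaling, the mean signal of the probe was 189 in control and 204 in stressed rats. The probe lies on chromosome 14 from 81108144 to 81108203.

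Adra2b, known from vascular smooth muscle and the thalamus, was -0.61 ± 0.22 (SD, n = 4) in control and -0.42 ± 0.15 (SD, n = 4) in stressed rats. The difference of 0.19 (95% interval -0.11 to 0.49) was within the spread between rats (limma adjusted p = 0.429). Before scaling, its mean signal was 1411 in control and 1400 in stressed rats, on arrays whose 75th percentile was 2156 ± 228 (SD, n = 4) and 1871 ± 87.1 (SD, n = 4; exact permutation p = 0.114). The probe lies on chromosome 3 from 114869275 to 114869334.

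Of the beta receptors, Adrb1, the main beta receptor of the heart and also present in brain, was dim but well above background on all 8 arrays, with a mean signal of 53.9 in control and 64.7 in stressed rats before scaling. Its level was -5.32 ± 0.30 (SD, n = 4) in control and -4.88 ± 0.36 (SD, n = 4) in stressed rats. The difference was 0.44 (95% interval -0.05 to 0.93; limma adjusted p = 0.284). The probe lies on chromosome 1 from 263026996 to 263027055. Adrb3, best known from fat cells, was near the background. It was well above background in 2 control and 3 stressed rats, and the mean signal of all 4 rats was 17.4 in control and 18.1 in stressed. Its difference of 0.27 had a 95% interval of -0.33 to 0.87 (limma adjusted p = 0.567). It was 0.07 after quantile normalization and 0.04 with another background correction (normexp). That correction adds 50 to every signal, which shrinks the log2 differences of dim probes such as this. The adipocyte markers Adipoq and Cidec were well above background on 0 of 8 arrays. The Adrb3 probe lies on chromosome 16 from 69166311 to 69166370. Exons and untranslated parts were not analysed for any of the probes.

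Control replicate 2 was the highest of the 4 control rats in 7 of the 8 receptors, the exception being Adra2c, and in 55.3% of all tested probes. When this array was left out, limma called 5 of the 8 receptors at FDR below 0.1, each higher in stressed rats, beside 30.5% of all tested probes called higher. These were Adra1a (difference 1.29, adjusted p = 0.00203), Adra2a (1.23, adjusted p = 0.00171), Adrb1 (0.58, adjusted p = 0.0614), Adra2c (0.33, adjusted p = 0.0858) and Adra2b (0.28, adjusted p = 0.0947). With any other array left out, limma called 0 of the 8 and at most 0.304% of all tested probes.

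**Figure D2:**
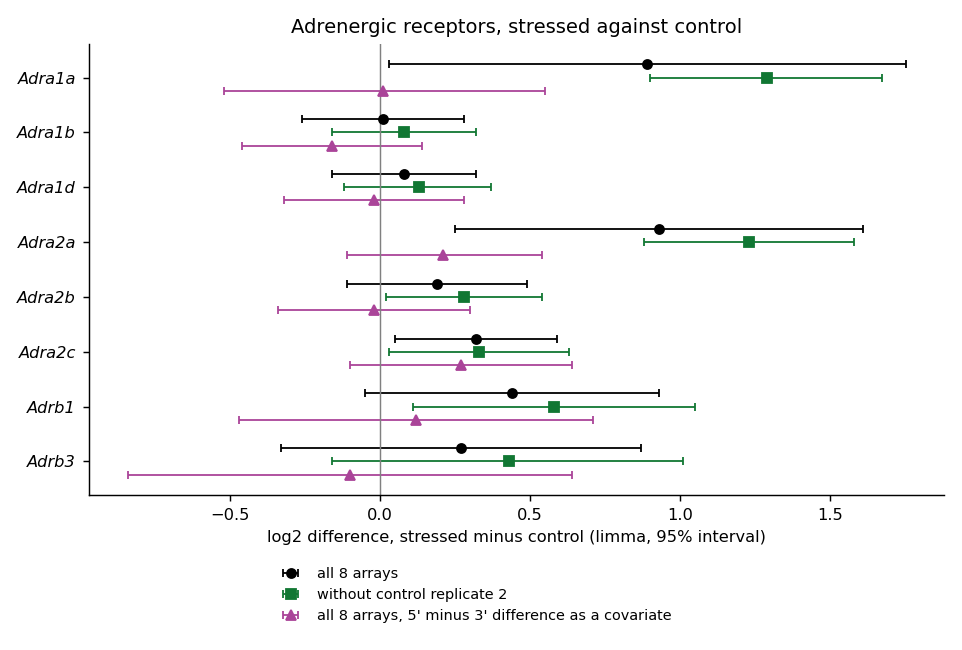
Log2 difference of each receptor, stressed minus control (x axis), with 95% intervals from limma, for all 8 arrays (circles), without control replicate 2 (squares) and with the 5′ minus 3′ value as a covariate (triangles). Adra1a and Adra2a move from 1.29 and 1.23 without control replicate 2 to 0.01 and 0.21 with the covariate.

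The arrays also differed in how evenly transcripts were covered. For 1887 transcripts with tested probes at least 300 bases apart, the 5′ probe was set against the 3′ probe on each array as a log2 difference. The median over these transcripts, relative to the mean of the 8 arrays for each transcript, was -0.30, 0.22, -0.30 and -0.18 in control replicates 1 to 4 and 0.17, 0.15, 0.17 and 0.09 in stressed replicates 1 to 4. Control replicate 2 was the highest, followed by the 4 stressed rats, and the other 3 control rats were below 0 (exact permutation p = 0.143 between the groups). The Adra1a and Adra2a levels divided the arrays in the same way. The main axis of variation (first principal component) over all tested probes, with 54.1% of the variance, did so too. With this value as a covariate, the differences were 0.01 (SE 0.23) for Adra1a, 0.21 (SE 0.14) for Adra2a, 0.27 (SE 0.16) for Adra2c and 0.12 (SE 0.25) for Adrb1. The other 4 receptors were then below 0, between -0.16 and -0.02, the median of the 8 was -0.01, and limma called 0 of them. In that fit 42.7% of all tested probes were above 0 and 10.1% were called. Apart from control replicate 2, the 5′ minus 3′ value divided the arrays as the groups do. Every fit with this covariate therefore leans on that array, and group and coverage can hardly be told apart in it. The part of transcript coverage in the receptor levels was not tested.

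**Figure D3:**
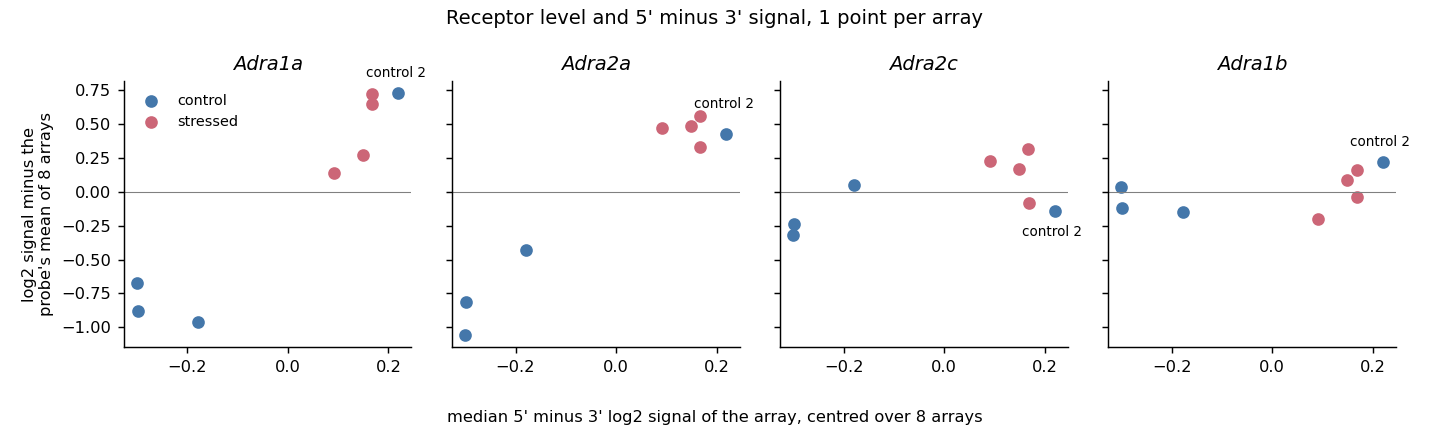
Log2 signal of 4 receptor probes, centred on the probe's mean (y axis), against the median 5′ minus 3′ log2 signal of the array (x axis, centred), 1 point per array, 4 control and 4 stressed rats. In Adra1a and Adra2a the 3 control arrays below 0 on the x axis are the lowest, whereas Adra1b has no such division.

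The genes that make, store and clear noradrenaline were described from a list of 9, of which 8 were tested. Limma called 0 of the 8 at FDR below 0.1, and 2 had an unadjusted p below 0.05 (Slc18a2 and Maob), beside 20.3% of all tested probes. The median difference was -0.01. Th, the rate-limiting enzyme of catecholamine synthesis, lay between 1.64 and 2.14 in all rats, with a difference of -0.01 (95% interval -0.30 to 0.29). Dbh, which converts dopamine to noradrenaline, was not well above background on any of the 8 arrays. Slc6a2, the noradrenaline transporter, differed by -0.06 (95% interval -0.25 to 0.13), and its dimmer second probe by -0.56 (limma adjusted p = 0.279), measured above background in 4 control rats and 1 stressed rat. Maoa, which breaks down noradrenaline, differed by -0.02 (95% interval -0.24 to 0.21).

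Slc18a2, the vesicular monoamine transporter, had a level of -6.19, -2.55, -6.10 and -5.83 in control replicates 1 to 4 and -3.17, -3.25, -2.88 and -3.90 in stressed replicates 1 to 4. Control replicate 2 was the highest of all rats and the other 3 control rats were the lowest. The difference was 1.87 (SE 0.79; limma adjusted p = 0.239), 2.74 without control replicate 2 (limma adjusted p = 0.00077) and -0.15 with the 5′ minus 3′ covariate. Maob, a further enzyme of monoamine breakdown, differed by 0.23 (limma adjusted p = 0.214). Pnmt, which makes adrenaline, differed by 0.22 (95% interval -0.13 to 0.58, limma adjusted p = 0.425). Without control replicate 2 they were at 0.29 and 0.36, and limma called both (adjusted p = 0.0181 and 0.0331, beside 42.4% of all tested probes). With the covariate they were at 0.09 and -0.08.

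**Figure D4:**
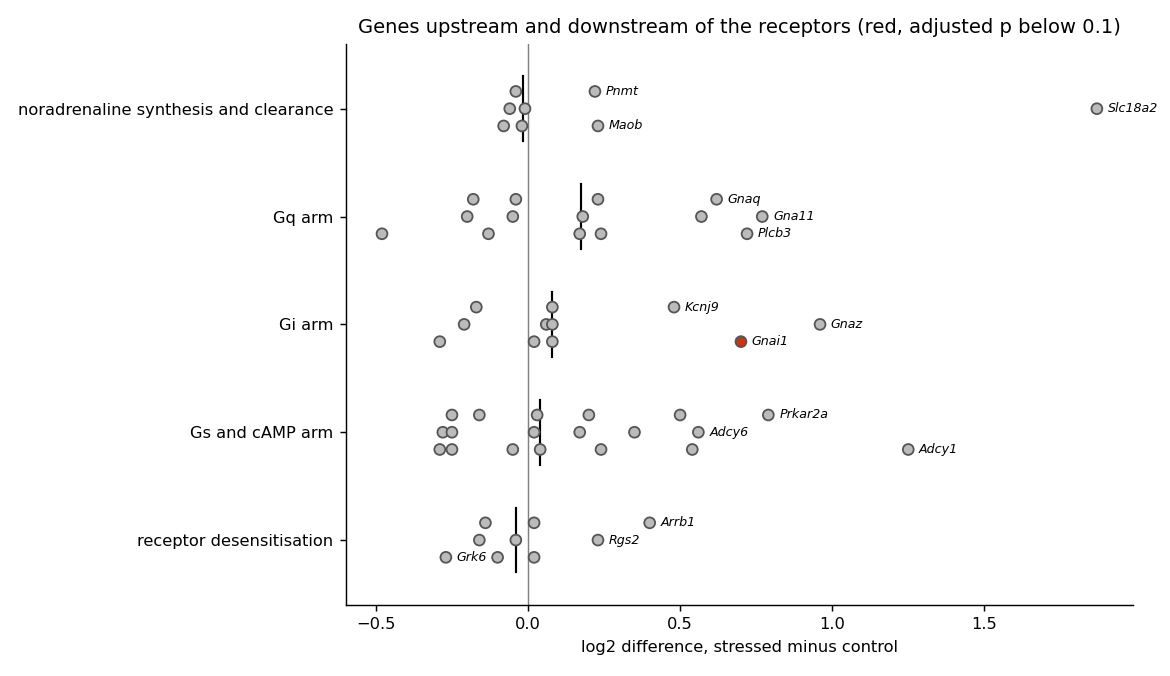
Log2 difference of the tested genes of 5 lists around the receptors (x axis, stressed minus control), 1 point per gene from its brightest tested probe, black bars at the list medians, red where the limma adjusted p is below 0.1. Gnai1 at 0.70 is the 1 red point, and Slc18a2 at 1.87 lies farthest from 0.

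Over all 5 lists, 61 of 66 genes were tested. Limma called 1 higher and 0 lower, which is not more than the 3.74% called of all tested probes, and 15 had an unadjusted p below 0.05, beside 20.3% of all tested probes. The median difference was 0.03, beside 0.06 for all tested probes. The gene called was Gnai1, an alpha subunit of Gi, the G protein of the alpha2 receptors. Its level lay between -3.40 and -2.92 in control rats, with replicate 2 at -3.11, and was -2.53, -2.27, -2.24 and -2.61 in stressed replicates 1 to 4. The groups did not overlap, and every stressed rat was above every control rat, control replicate 2 included. The difference was 0.70 (SE 0.13, 95% interval 0.39 to 1.01; limma adjusted p = 0.0658). It was 0.65 with the 5′ minus 3′ covariate (limma adjusted p = 0.099). When any 1 array other than control replicate 2 was left out, the difference lay between 0.60 and 0.76 and limma no longer called it (adjusted p between 0.119 and 0.201).

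In the Gi arm, which also holds potassium and calcium channels, limma called 1 of 11 tested genes (beside 3.74% of all tested probes) and the median difference was 0.08. Of the 3 with an unadjusted p below 0.05 (beside 20.3%), 2 were lower in stressed rats. Gnaz, a further Gi-class subunit, differed by 0.96 (SE 0.44; limma adjusted p = 0.268), and Kcnj9, a G protein-gated potassium channel, by 0.48 (SE 0.30; limma adjusted p = 0.383). In both, control replicate 2 was above all 4 stressed rats. Without control replicate 2 they were at 1.41 and 0.76, and limma called both (adjusted p = 0.00506 and 0.0227, beside 42.4% of all tested probes). With the 5′ minus 3′ covariate they were at -0.13 and -0.19. The Gq arm of the alpha1 receptors had 0 of 14 genes called, 6 with an unadjusted p below 0.05 in limma, 2 of them lower in stressed rats (beside 20.3% of all tested probes) and a median of 0.17. Its subunit Gna11 differed by 0.77 (limma adjusted p = 0.234), the phospholipase Plcb3 by 0.72 (limma adjusted p = 0.181) and the subunit Gnaq by 0.62 (limma adjusted p = 0.244). Without control replicate 2 these 3 were at 1.10, 0.96 and 0.91, and limma called all 3 (adjusted p between 0.00155 and 0.00446, beside 42.4% of all tested probes). With the 5′ minus 3′ covariate they were at 0.00, 0.15 and -0.03.

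The Gs and cyclic AMP arm had 0 of 19 genes called, 3 with an unadjusted p below 0.05 in limma, each lower in stressed rats (beside 20.3% of all tested probes), and a median of 0.04. The 3 genes with the largest differences were not among them. Adcy1 and Adcy6, which make cyclic AMP, were each well above background on some arrays only, Adcy1 in 1 control and 3 stressed rats and Adcy6 in 2 control and 3 stressed rats. Their differences were 1.25 (SE 0.64; limma adjusted p = 0.302) and 0.56 (SE 0.60; limma adjusted p = 0.603). Prkar2a, a regulatory subunit of protein kinase A, differed by 0.79 (SE 0.38; limma adjusted p = 0.284). Adcy1, Adcy6 and Prkar2a were at 1.93, 1.17 and 1.21 without control replicate 2, where limma called all 3 (beside 42.4% of all tested probes). Adcy1 was then at -8.74, -8.46 and -8.92 in control replicates 1, 3 and 4. These signals lie near the background, so that 1.93 is not an exact difference. With the 5′ minus 3′ covariate Adcy1, Adcy6 and Prkar2a were at -0.18, -0.89 and -0.15. Of the genes that desensitise receptors, limma called 0 of 9, 1 had an unadjusted p below 0.05 (beside 20.3% of all tested probes), and the median was -0.04. The values were 0.40 for Arrb1, a beta-arrestin, -0.27 for the receptor kinase Grk6 and 0.23 for Rgs2, which shortens Gq signals (limma adjusted p between 0.195 and 0.42). Without control replicate 2 they were 0.66, -0.34 and 0.35, and limma called all 3 (adjusted p between 0.00857 and 0.0271, beside 42.4% of all tested probes). They were -0.19, -0.13 and -0.05 with the covariate.

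Probes of 1 gene did not always move together. Among the 19 genes of the 5 lists with more than 1 tested probe, the differences had opposite signs in 9. The brighter Grk6 probe was at -0.27 and the dimmer at 0.49, and the Rgs2 probes were at 0.23 and -0.13, none of them called by limma. Each receptor is read by a single probe, so that no such comparison can be made within a receptor.

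Markers of the cells that could carry the receptors were checked on the same arrays. All 5 neuronal, 3 motor neuron, 5 astrocyte, 3 oligodendrocyte and 4 microglial markers with a probe were tested. Over all the lists of cell types limma called 3 of 42 tested markers, beside 3.74% of all tested probes, each higher in stressed rats: the oligodendrocyte gene Mog (0.90, adjusted p = 0.0721), the pericyte gene Rgs5 (0.46, adjusted p = 0.0816) and the endothelial gene Pecam1 (0.40, adjusted p = 0.0927). With the 5′ minus 3′ covariate they were at 0.53, 0.27 and 0.43 and not called (adjusted p between 0.103 and 0.11), while the neuronal gene Snap25 was called higher in that fit (0.39, adjusted p = 0.0692). Limma called none of the 3 with another background correction (adjusted p between 0.116 and 0.176) or when any 1 array other than control replicate 2 was left out. Their differences were 0.86, 0.41 and 0.37 with that correction. With 1 such array left out, they lay between 0.77 and 0.99 for Mog, 0.42 and 0.49 for Rgs5, and 0.35 and 0.46 for Pecam1. The other tested markers in the lists of these 3 genes were not called. In the list of Rgs5 the median difference was -0.27, with Acta2, Myh11 and Tagln below 0. Cspg4 of that list was at 0.24, and the dimmer probe of Myh11 at 0.26. Cnp, a further oligodendrocyte gene, was at 0.03, 2.84, 0.34 and 0.52 in control replicates 1 to 4 and between 2.27 and 2.99 in stressed rats, the division seen for Adra1a and Adra2a. Gfap, of astrocytes, was at 1.99 in control replicate 2, between 0.25 and 0.64 in the other control rats and between 1.07 and 2.37 in stressed rats. Neither was called. The astrocyte gene Slc1a2 (0.42, not called) divided the rats in the same way, and the other tested markers of the 2 lists did not: Mag differed by 0.04, Aldh1l1 by -0.08 and Gjb6 by 0.10, and Gja1 (0.30) was higher in every stressed rat than in any control rat. Outside these lists, the neuronal gene Syt1 (0.32) and the motor neuron gene Chat (0.67) showed that division. So did the endothelial genes Cldn5 (0.17) and Flt1 (0.15), and Cspg4, none of them called. Of the other motor neuron genes, Slc5a7 differed by -0.01, and Isl1 (-0.47) had the reverse division. The neuronal genes Snap25 (0.20), Gad1 (-0.18) and Slc6a5 (-0.13) and the endothelial gene Kdr (0.03) did not show the division. The dimmer probes of Gad1 (0.64) and Slc6a5 (0.46) did. The neuronal gene Slc17a6 (-0.26, not called) was lower in every stressed rat than in any control rat. The division of Adra1a and Adra2a is also that of the main axis of variation over all tested probes (54.1% of the variance), so it is not particular to these markers. Without control replicate 2, the exact permutation p was below 0.05 in 31.3% of all tested probes, in either direction.

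The summed level of the 3 oligodendrocyte markers, where the 75th percentile of an array counts as 1 per marker and bright probes weigh most, was 42.0, 48.5, 41.2 and 42.0 in control replicates 1 to 4 and 51.1, 50.6, 60.1 and 43.9 in stressed replicates 1 to 4 (exact permutation p = 0.0571). That of the 5 astrocyte markers was 15.5, 19.6, 15.0 and 16.0 in control replicates and 20.3, 18.9, 21.8 and 19.0 in stressed replicates (exact permutation p = 0.0857). That of the 5 smooth muscle and pericyte markers, cells known to carry alpha1 receptors, was 3.56, 4.23, 4.00 and 2.75 in control and 3.13, 3.84, 5.24 and 3.06 in stressed replicates (exact permutation p = 0.80). That of the 5 neuronal markers was 46.6, 38.7, 45.8 and 47.1 in control and 46.8, 48.6, 42.0 and 48.9 in stressed replicates (exact permutation p = 0.457). The part of cell composition in the receptor levels was not tested.

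The Schwann cell marker Prx lay between -7.32 and -2.55 over the rats, the lowest in control replicate 4 and the highest in control replicate 1. The fibroblast markers Dcn, Lum, Col1a1 and Col1a2 were also highest in control replicate 1. No receptor was highest in that rat, and Adra2a and Adra2c were lowest in it. Among markers of noradrenergic cells, Th and Slc6a2 were tested, Dbh was well above background on 0 arrays and Phox2a on 1.

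**Figure D5:**
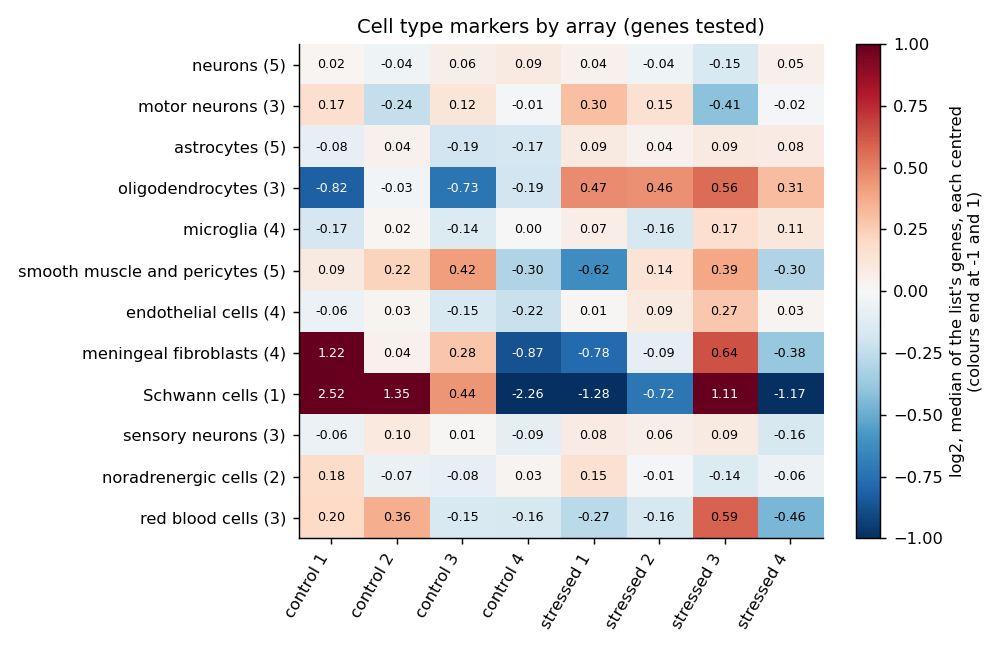
Median level of each cell type's tested markers on each array (colour and printed value, log2, each gene centred on its mean of the 8 arrays), with the number of markers in brackets. The Schwann cell marker is at 2.52 in control replicate 1 and at -2.26 in control replicate 4, and oligodendrocyte markers are at -0.82 and -0.73 in control replicates 1 and 3, at -0.19 in control replicate 4 and at -0.03 in control replicate 2.

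The genes with the profile closest to each receptor were sought among 13488 gene symbols, by the root mean square difference of the centred log2 levels over the 8 arrays, as a description only. Closest to Adra2a were Olig1 at 0.05, a transcription factor of oligodendrocytes, and Phf13 at 0.08. Closest to Adra1a were Xpr1 at 0.08 and Stxbp6 at 0.11, and closest to Adra2c were Znf287 at 0.07 and Tdrkh at 0.08. Adra1d lay closest to Htr3a, a serotonin-gated channel, at 0.03 and to Wdr3 at 0.04. For Adra1b they were Ptpn13 and Zfp131, both at 0.04, and for Adra2b Khsrp at 0.04 and Cbr3 at 0.05. For Adrb1 they were Avpr2 at 0.09 and Mylk2 at 0.11, and for Adrb3 Olr1248 and Tmem171, both at 0.07. Of these 16 genes limma called Znf287 (difference 0.38, adjusted p = 0.087), where 3.74% of all tested probes were called. The call was lost at a similar difference with the covariate (0.35) and with a variance trend (0.38). So it was when any 1 array other than control replicate 2 was left out (between 0.34 and 0.43). It was also lost with another background correction (0.19) and after quantile normalization (0.18). Flat profiles such as those of Adra1b and Adra1d are close to those of many genes. The Adra1a and Adra2a profiles divide the arrays as the main axis of variation over all tested probes does (54.1% of the variance). Closeness to them was therefore not read as a shared cell type.

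The share of G and C in the 8 probes ran from 35.0% in Adrb3 to 65.0% in Adrb1. The probes of the 2 receptors with the largest differences were in between, with 45% in Adra1a and 43.3% in Adra2a. These 2 probes start at bases 1343 and 1492 of their transcripts in the files, and those of Adrb1 and Adra2c at 1341 and 1407, while the probes of the other 4 receptors start between 1918 and 2794. The distance from the 3′ end was not analysed.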

How the data were processed

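Spinal cord RNA of 8 rats (4 stressed, 4 control) was hybridised to 1-colour Agilent arrays. Per the file headers, the deposited intensity values are the processed signal of Agilent Feature Extraction 10.7.3.1, background-subtracted and detrended within each array. The series' table holds the same values rounded, with column medians from 243.1 to 275.8, and no scaling between arrays was found in it. Here control spots were left out, outlier spots set to missing, log2 signals scaled to each array's 75th percentile and spots of a probe averaged. Probes well above background on at least 4 of 8 arrays (at least 0.5 of their spots) were compared with limma 3.58.1 in R 4.3.3 (lmFit and eBayes), with Benjamini-Hochberg adjustment over all 23678 tested probes and an FDR of 0.1. The fit was tested on simulated data. Single values were compared with two-sided exact permutation tests.

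All 8 accessions carried the same symbol in RefSeq (GRCr8). The positions given for probes were read from the files (rn4). A gene of a list was represented by its tested probe with the highest mean. The search for like profiles left out names that are locus, clone or transcript identifiers, by a pattern that can also drop some symbols. The genes named were all 8 receptors, Th, Dbh, Slc6a2, Slc18a2, Maoa and Maob, the called genes of each of 5 lists (up to 5), and the 3 with the largest differences where fewer than 3 were called. Some genes of the lists are not reported here and are in none of the counts. The members and lists were chosen with earlier results of these data known. Alternatives covered background correction, normalization, filters, variance, weights, a replicate block, 5′ minus 3′ signal and leaving out each array. The number of arrays limits the precision.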

Additional observations from a re-analysis of the deposited data

Results flagged for a closer look

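Within groups of 4 rats, 7 of 56 groups held 1 rat far from the others, where the gap to the nearest rat took more of the range than Dixon's critical value for 4 samples, and chance gives such a gap in about 1 of 20 groups. None of these groups belonged to a receptor, and the Adra1a control group, with replicate 2 high, lay just below that value. Control replicate 2 was high in Slc18a2 (share of the range 0.902), Gnaq (0.856), Adcy1 (0.842), Prkar2a (0.833) and Rgs2 (0.868). Stressed replicate 1 was high in Prkar2a (0.861), and stressed replicate 2 was low in Adcy1 (0.918). The rate of 1 in 20 holds for independent groups. Here control replicate 2 recurs, and some genes were named for their large differences, so the count of 7 is no test against chance.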

How the results depend on the processing

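The count of receptors called by limma at FDR below 0.1 was 0 with all 8 arrays (beside 3.74% of all tested probes). It was also 0 with normexp background correction (0.908%), quantile normalization (4.98%), the series table (3.74%) and a variance trend (5.47%). The same count was found with no filter on dim probes (9.92%) and with probes well above background on all 8 arrays (4.9%). It was 0 again with the replicate block (0.0%) and the 5′ minus 3′ covariate (10.1%). It was 6 with array weights, where control replicate 2 had a weight of 0.107 and 50.6% of all tested probes were called, and between 0 and 5 when 1 array was left out, 5 being without control replicate 2 (beside 42.4% of all tested probes). The count of receptors with an exact permutation p below 0.05 was 0 (beside 12.1% of all tested probes), with 1 after normexp (9.34%) and between 0 and 2 when 1 array was left out, 2 being without control replicate 2 (31.3%). These alternatives of the exact test, and those for Gnai1 alone, were chosen after the files were seen.

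Genes of the 5 lists called by limma numbered 1, with 3 without a filter on dim probes (Gnai1 and Dbh higher, Prkar2b lower, Dbh not well above background on any array; beside 9.92% of all tested probes), 2 with a variance trend (Gnai1 higher and Prkar2b lower; beside 5.47%), 36 with array weights (beside 50.6% of all tested probes), 4 with the 5′ minus 3′ covariate (Gnai1 higher, and Gnao1, Adcy3 and Adrbk1 lower; beside 10.1% of all tested probes) and between 0 and 33 when 1 array was left out, 33 being without control replicate 2 (beside 42.4% of all tested probes). Those among them outside the rule for names were chosen after their values were seen.

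With the replicate number as a block, limma called 0 of these genes, 0 receptors and 0 of all tested probes, Mog, Rgs5, Pecam1 and Znf287 included, and 4292 probes had an unadjusted p below 0.05. The labels give both groups the numbers 1 to 4, but deviations from the group means correlated at 0.095, 0.12, -0.087 and 0.305 in same-numbered rats, so the numbers were not taken to pair the rats.

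Adra1b changed sign to -0.02 with normexp, to -0.16 with the covariate, and it lay between -0.04 and 0.08 when 1 array was left out (below 0 without stressed replicates 2 or 3 or control replicates 3 or 4, at -0.02, -0.04, -0.03 and -0.04). With the covariate, Adra1d was at -0.02, Adra2b at -0.02 and Adrb3 at -0.10. The cause was not tested. Adra1a, Adra2a, Adra2c and Adrb1 were above 0 in all 17 alternatives, at 0.34, 0.55, 0.23 and 0.23 with normexp and 0.71, 0.75, 0.17 and 0.24 after quantile normalization. The normexp setting adds 50 to every signal, which shrinks the log2 differences of dim probes. When 1 array was left out, Adra1d lay between 0.00 (without stressed replicate 1) and 0.14 (without stressed replicate 3). Adra2b then lay between 0.11 (without control replicate 3) and 0.28 (without control replicate 2). Adrb3 was 0.09 and 0.16 without control replicates 3 and 4, and 0.43 and 0.41 without control replicate 2 and stressed replicate 4. With array weights, Adra2b was 0.35 and Adrb3 was 0.55. Adrb3 was above background on 3 arrays when all its spots had to be, and on 8 by the positive and significant flag. Of all tested probes called, 74.0% were higher in stressed rats, 58.1% after quantile normalization, 88.4% with normexp and 48.1% with the covariate. Signal over background limits Adrb3, Adcy1 and Adcy6.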
